A study of Mus musculus with 2 samples.

Results

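SOX proteins are transcription factors that bind DNA through an HMG box, and 10 genes of the family with roles in the nervous system were examined for DNase I hypersensitive sites in the mouse cell line MN1. They were taken from 3 of the family's groups: Sox1, Sox2, Sox3 and Sox21 of SoxB, Sox4, Sox11 and Sox12 of SoxC, and Sox8, Sox9 and Sox10 of SoxE. The 10 genes were listed by name, out of 21938 protein-coding genes in the GENCODE M21 annotation of mm10, and all 10 were found in it. Each was described over its gene body plus 50 kb on each side, with a promoter defined as 1 kb either side of any annotated start site.

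DNase-seq marks DNA that the nuclease DNase I can cut in nuclei, which is DNA not tightly covered by nucleosomes, such as active promoters and enhancers. MN1 is described in the labels as immortalized, of strain B6NCrl, with no treatment, tissue of origin or cell type given, age unknown and sex not collected. The series held 1 group with 2 biological replicates, 1 library each, which the labels do not tie to separate cultures, and with no second condition no test between groups was possible. The labels name 2 sequencing instruments for replicate 2 and none for replicate 1. For each library the authors deposited peaks, which are 150 bp sites with a score from 1 to 150, and hotspots, which are wider regions of variable length with a q-value.

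In the developing nervous system the SoxB1 factors Sox1, Sox2 and Sox3 keep progenitors in an undifferentiated state, and Sox21, of the SoxB2 subgroup, counteracts them. SoxC factors act later, when neurons begin to differentiate, and are also present in many immature cell types outside the nervous system. SoxE factors are known for glia and the neural crest, and Sox9 also for cartilage.

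After repeated entries were removed, replicate 1 held 170286 peaks on the main chromosomes and replicate 2 held 162691. Peaks of the 2 libraries that overlapped by at least 1 bp were called shared, which were 67.1% of the replicate 1 list and 70.2% of the replicate 2 list. The read depth behind these lists is unknown, so no limit can be put on sites that were not called. Peak scores are given as deposited, replicate 1 first, and compared only as percentiles within their own list, since the median score was 49 in replicate 1 and 39 in replicate 2. Positions are distances of the peak centre from the nearest annotated start site of the gene, negative upstream.

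Promoter peaks were called in both libraries at 4 of the 10 genes (Sox4, Sox12, Sox8 and Sox9), here called open, and in neither library at the other 6, here called closed. Over all protein-coding genes the share with one in both was 59.2% (12990 of 21938). By group the count was 0 of 4 for SoxB, 2 of 3 for SoxC and 2 of 3 for SoxE. Hotspots gave the same 4 genes, against 59.4% of all protein-coding genes, and replicate 2 alone added a hotspot at the promoter of Sox3. The libraries gave the same promoter peak call, present or absent, for each of the 10 genes. Most genes of the background matched in this way as well. Replicate 1 listed such peaks for 13395 of the 21938 genes and replicate 2 for 13364, with 12990 common to both. The match is therefore not particular to the SOX genes.

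The windows held 116 shared peaks in all, of which 1 lay in a SoxB window, 51 in SoxC windows and 64 in SoxE windows. Replicate 1 listed 162 peaks in the windows, 3 of them at SoxB genes, and replicate 2 listed 156, 6 of them at SoxB genes. At least 1 shared peak was found for 7 of the 10 genes, against 83.6% of all genes. At least 20 were found for 3 (Sox12, Sox8 and Sox10), against 25.5% of all genes, a limit set after the values were seen. The median was 0 shared peaks per gene in SoxB, 15 in SoxC and 22 in SoxE, beside 11 over all protein-coding genes (quartiles 3 and 20). SoxB stood at the low end in both libraries, while the SoxC range of 9 to 27 and the SoxE range of 7 to 35 overlapped.

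**Figure D1:**
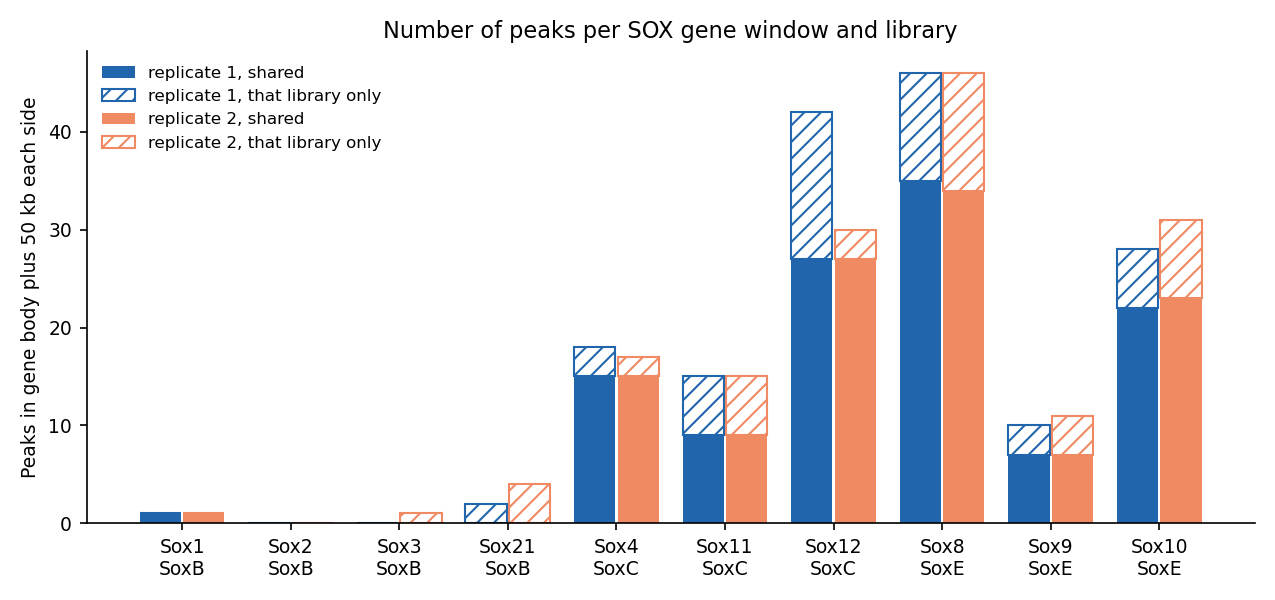
Number of DNase I peaks in each gene window (gene body plus 50 kb on each side; y axis) in replicate 1 (blue) and replicate 2 (orange), with peaks shared by both libraries filled and peaks of 1 library hatched. The SoxB genes have between 0 and 4 peaks in a library, and the SoxC and SoxE genes between 10 and 46.

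Windows differ in how many genes they hold, and shared peaks over all genes rose with that number. Where a window held the promoter of its own gene only, the median over 2978 such genes was 2 shared peaks, and 35.8% of them had none. Of the SOX genes, 6 were of this kind, with 1 shared peak at Sox1, 0 at Sox2, 0 at Sox3, 15 at Sox4, 9 at Sox11 and 7 at Sox9. Among these genes of equal density, 85.5% had fewer shared peaks than Sox4, 74.0% fewer than Sox11 and 67.5% fewer than Sox9. Windows with the promoters of 2 coding genes had a median of 8 shared peaks, where Sox21 had 0 and Sox8 had 35, more than 96.6% of them. Sox10 (4 coding genes) had 22 against a median of 12, and Sox12 (5 coding genes) had 27 against a median of 14. The part of gene density in the differences among the SOX groups was not tested.

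Over all genes, promoters rich in CpG were mostly open, and most of the closed SOX genes had such promoters. The ratio of observed to expected CpG was taken over 500 bp either side of the outermost start site, and all protein-coding genes were split into 10 equal classes by it. The share of genes with a promoter peak in both libraries rose from 7.79% in the lowest class to 91.9% in the highest. The 4 SoxB genes lay in classes 8 to 10, with ratios of 0.74 to 0.96, where 88.1% to 91.9% of genes were open at the promoter, and none of the 4 was. Sox11 (ratio 0.91) and Sox12 (0.97) lay together in class 10, 1 without and 1 with promoter peaks. Sox10 lay in class 2 with a ratio of 0.17, where 18.9% of genes had a promoter peak, and it had none. Of the 8 SOX genes in the top 3 classes, 3 had an open promoter (Sox4, Sox12 and Sox9).

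**Figure D2:**
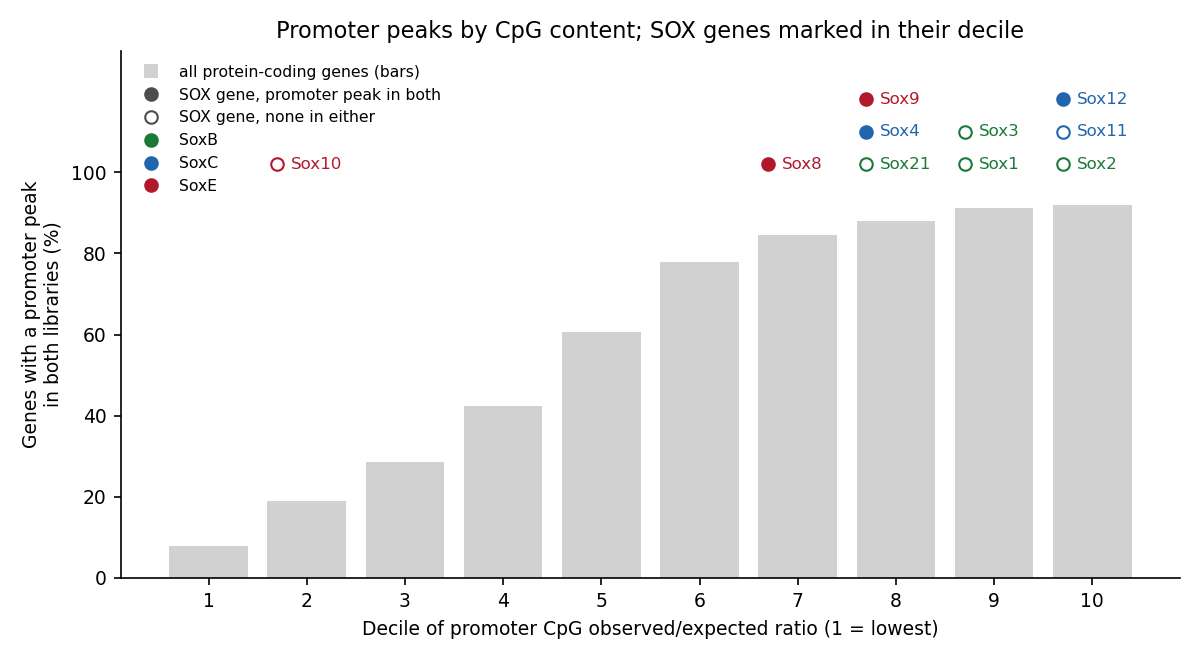
Percentage of protein-coding genes with a promoter peak in both libraries (bars, y axis) by class of promoter CpG observed/expected ratio (x axis, 1 lowest, 10 highest), with each SOX gene drawn over its class, filled where it had a promoter peak in both libraries and open where it had one in neither. The symbols above 100 on the y axis mark genes and carry no value on that axis. Bars rise from 7.79% to 91.9%, and 5 of the 8 SOX genes in classes 8 to 10 had a promoter peak in neither library.

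The promoter sequences of Sox2 and Sox11 are shown because they are rich in CpG and lay in no peak, and the promoter peaks of Sox4, Sox12, Sox8 and Sox9 because they were the highest peaks of their windows by mean score percentile over both libraries. The promoters are the 250 bases before the RefSeq start site (GRCm38.p6, the mm10 assembly), with CpG in capitals. For Sox2 the RefSeq start lies upstream of the GENCODE start, and the stretch shown is within 1 kb of the GENCODE start. The peaks are mm10 reference sequence on the strand of transcription, with motif matches in capitals.
Sox2 promoter, chr3:34649745-34649994, plus strand, 27 CpG: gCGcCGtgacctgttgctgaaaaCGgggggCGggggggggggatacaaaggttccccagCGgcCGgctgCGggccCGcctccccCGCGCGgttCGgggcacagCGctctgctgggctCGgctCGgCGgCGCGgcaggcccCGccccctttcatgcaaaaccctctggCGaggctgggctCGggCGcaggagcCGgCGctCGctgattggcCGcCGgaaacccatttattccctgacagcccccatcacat
Sox11 promoter, chr12:27342719-27342968, minus strand, 17 CpG: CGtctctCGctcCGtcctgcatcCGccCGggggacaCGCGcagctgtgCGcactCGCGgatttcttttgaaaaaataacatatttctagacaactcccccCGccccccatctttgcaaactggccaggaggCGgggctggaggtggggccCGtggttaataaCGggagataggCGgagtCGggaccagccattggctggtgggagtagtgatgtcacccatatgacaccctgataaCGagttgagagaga
Sox4 peak, chr13:28953716-28953865, minus strand, at -0.08 kb, NFY motifs: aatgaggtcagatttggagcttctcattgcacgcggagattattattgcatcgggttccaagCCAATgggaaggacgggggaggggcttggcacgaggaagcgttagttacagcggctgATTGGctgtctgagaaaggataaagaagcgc
Sox12 peak, chr2:152398836-152398985, minus strand, at -0.85 kb, no motif match: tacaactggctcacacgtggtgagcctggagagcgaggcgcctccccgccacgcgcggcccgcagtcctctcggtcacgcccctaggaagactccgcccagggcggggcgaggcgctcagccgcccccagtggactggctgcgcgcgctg
Sox8 peak, chr17:25570736-25570885, minus strand, at -0.12 kb, SP/KLF motif: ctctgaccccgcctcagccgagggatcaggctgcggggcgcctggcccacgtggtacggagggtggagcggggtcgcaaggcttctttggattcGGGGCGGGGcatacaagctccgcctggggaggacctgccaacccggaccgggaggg
Sox9 peak, chr11:112781536-112781685, plus strand, at -0.61 kb, AP-1 motif: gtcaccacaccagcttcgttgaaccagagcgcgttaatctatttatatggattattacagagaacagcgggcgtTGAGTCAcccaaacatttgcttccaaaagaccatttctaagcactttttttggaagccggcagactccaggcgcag

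The closed Sox2 promoter had 27 CpG in 250 bases at 72.0% GC, as many as or more than 92.4% of 32851 RefSeq promoters, and the Sox11 promoter had 17. The open Sox12 promoter had 35 and the open Sox4 promoter 11. The letters of these stretches therefore did not sort the open from the closed SOX promoters by CpG number. RefSeq entries were matched for 7 of the 10 genes.

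Sox1 (ENSMUSG00000096014.1, chr8:12395295-12400126, plus strand), an early neural plate and progenitor factor, is a gene of a single exon of 4832 bp. Its promoter and gene body held no peak and no hotspot in either library. The window held 1 peak in each library, and they overlapped, with scores of 39 and 15 (percentiles 35.81 and 6.971). It lay at -43.92 kb, at chr8:12351296-12351445, and it was the one shared site of the SoxB group. Both scores were below the median of their list. It is shown as the SoxB group's single shared site, with matches to the NFI and NFY motifs in capitals.
Sox1 peak, chr8:12351296-12351445, plus strand, at -43.92 kb: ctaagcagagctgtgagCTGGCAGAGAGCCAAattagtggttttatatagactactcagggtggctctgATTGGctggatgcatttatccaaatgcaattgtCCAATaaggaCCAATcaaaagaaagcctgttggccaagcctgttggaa

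Sox2 (ENSMUSG00000074637.7, chr3:34650405-34652461, plus strand), which maintains neural stem cells and is also a pluripotency factor, had no peak and no hotspot in its window in either library. A window without a peak of either library was found for 9.8% of all protein-coding genes, and Sox2 was the 1 SOX gene of the 10 among them. The nearest peak to its start site lay 204.8 kb away in each library. The peak-free stretch around the gene measured 592.5 kb in replicate 1 and 657.7 kb in replicate 2. A nearest peak over 200 kb away in both libraries was found for 4.17% of all genes, a limit set after this value was seen. The noncoding gene Sox2ot, named for its overlap with Sox2 and with 7 start sites in the window, had no promoter peak either.

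Sox3 (ENSMUSG00000045179.9, chrX:60891366-60893430, minus strand), an X-linked progenitor factor, differed between the libraries. In replicate 1 no peak lay within 488.6 kb of its start site, inside a peak-free stretch of 3568 kb. In replicate 2 a single peak lay in its coding sequence at 1.08 kb, at chrX:60892276-60892425, with a score of 22 (percentile 20.43). A replicate 2 hotspot of 273 bp, with a −log10 q-value at the cap of 100, surrounded this peak and reached the promoter window. It covered 13.22% of the gene body, against 0% in replicate 1. The gene body was therefore called accessible in 1 of the 2 libraries.

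Sox21 (ENSMUSG00000061517.8, chr14:118233232-118237030, minus strand), which counteracts SoxB1 proteins at shared target sites, had 2 peaks in replicate 1 and 4 in replicate 2, and none was shared. The replicate 1 peaks lay downstream at 27.2 and 29.46 kb with scores of 25 and 23. Those of replicate 2 lay at 1.88, 24.7, 24.74 and 43.2 kb with scores of 12, 16, 15 and 21. All 6 were at percentile 18.33 or lower in their list. The one at 1.88 kb was in the coding sequence, in a hotspot of 235 bp that covered 6.186% of the gene body in replicate 2. Peaks of both libraries lay in the promoter of the noncoding gene 4933431J24Rik without overlapping each other.

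**Figure D3:**
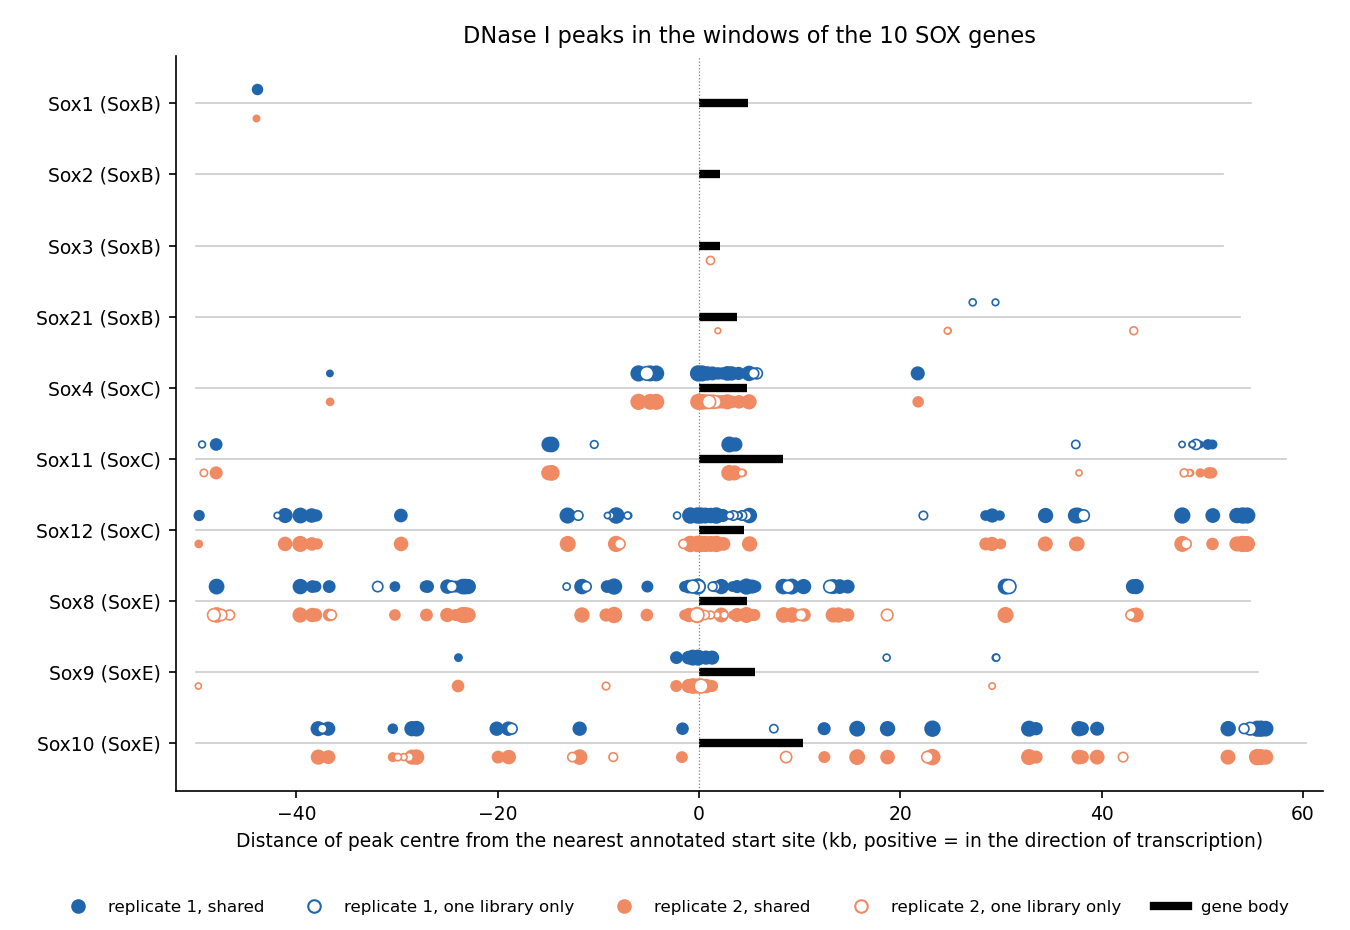
Peaks in the 10 windows by distance from the nearest annotated start site (x axis, kb, positive in the direction of transcription), 1 row per gene, with replicate 1 above the line in blue and replicate 2 below in orange. Filled symbols are shared peaks, open symbols peaks of 1 library, symbol area grows with the score percentile, and the black bar is the gene body. The 4 SoxB rows hold 1 shared peak, and the Sox4, Sox12, Sox8 and Sox9 rows have shared peaks at the start site.

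Sox4 (ENSMUSG00000076431.4, chr13:28948919-28953713, minus strand), a SoxC factor that promotes expression of neuronal genes, had 18 peaks in replicate 1 and 17 in replicate 2, of which 15 were shared. Its highest promoter peak scored 135 and 127 (percentiles 97.06 and 95.34). For comparison, the best promoter peak had a median percentile of 95.22 and 95.34 over all genes with one. Of the 15 shared peaks, 1 lay in the 5' UTR, 3 in the coding sequence and 4 in the 3' UTR, so 8 fell inside this gene of a single exon. Hotspots covered 68.63% of the gene body in replicate 1 and 78.77% in replicate 2, beside a median of 3.112% and 2.95% over all genes. The noncoding gene Gm26735 overlaps the 3' UTR of Sox4, and DNase-seq does not assign a site to 1 of them.

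Upstream of Sox4, 3 shared peaks stood in a group at -4.24, -4.84 and -6.0 kb. Their scores were 115 and 121, 120 and 109, and 128 and 129. All 3 were at percentile 90.67 or higher in both lists, beside 97.06 and 95.34 at the promoter. The remaining shared peaks were at 4.98 kb (scores 96 and 82), 21.74 kb (65 and 30) and -36.66 kb (20 and 18). Shared sites of Sox4 thus lay mostly within 6.0 kb of its start site.

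Sox11 (ENSMUSG00000063632.6, chr12:27334264-27342574, minus strand), a SoxC factor of immature neurons, had no promoter peak and no promoter hotspot in either library. It had 15 peaks in each library and 9 shared, all distal, where distal means outside every coding promoter. The nearest to the start site lay in the 3' UTR at 3.02 kb with scores of 114 and 101 (percentiles 91.24 and 88.17), beside another at 3.62 kb with 67 and 80. A hotspot of 1377 bp in replicate 1 and 1372 bp in replicate 2 covered them, and 16.57% and 19.78% of the gene body lay in hotspots. Sox11 was the 1 gene of the 10 with shared peaks in the gene body and none at the promoter.

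A pair of shared peaks lay upstream of Sox11 at -14.64 kb (scores 105 and 101) and -14.88 kb (93 and 78). Another lay at -47.96 kb (48 and 42), and 4 weaker ones lay between 48.98 and 51.02 kb, with scores of 18 to 35 in replicate 1 and 15 to 30 in replicate 2. The peak at -14.64 kb is shown as the highest outside untranslated regions, with an E-box match in capitals.
Sox11 peak, chr12:27357136-27357285, minus strand, at -14.64 kb: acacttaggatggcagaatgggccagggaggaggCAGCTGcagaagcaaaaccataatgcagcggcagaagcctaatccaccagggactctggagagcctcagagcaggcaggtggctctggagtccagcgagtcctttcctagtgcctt

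Sox12 (ENSMUSG00000051817.8, chr2:152393611-152398063, minus strand), the third SoxC gene, had 42 peaks in replicate 1 and 30 in replicate 2, of which 27 were shared. Its highest promoter peak scored 144 and 143 (percentiles 99.32 and 99.31), the highest of the 10 genes in both libraries. A single hotspot of 5107 bp in replicate 1 and 4285 bp in replicate 2 spanned the promoter and much of the gene. These lengths were at percentiles 99.98 and 99.97 of all hotspots. Hotspots covered 83.05% of the gene body in replicate 1 and 61.89% in replicate 2.

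The libraries differed at Sox12 in the number of peaks that only 1 of them held. Of 15 peaks found in replicate 1 alone, 5 lay in the 3' UTR between 3.08 and 4.28 kb, with scores of 23 to 37, and the highest of the 15 scored 51 at 38.22 kb (percentile 52.58). Replicate 2 had 3 peaks of its own in the window. Shared peaks reached scores of 143 and 138 in the 3' UTR at 1.72 kb and of 143 and 129 upstream at -8.21 kb. The 4 shared peaks at promoters of other coding genes were at Trib3 and 6820408C15Rik, which leaves 19 distal ones.

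**Figure D4:**
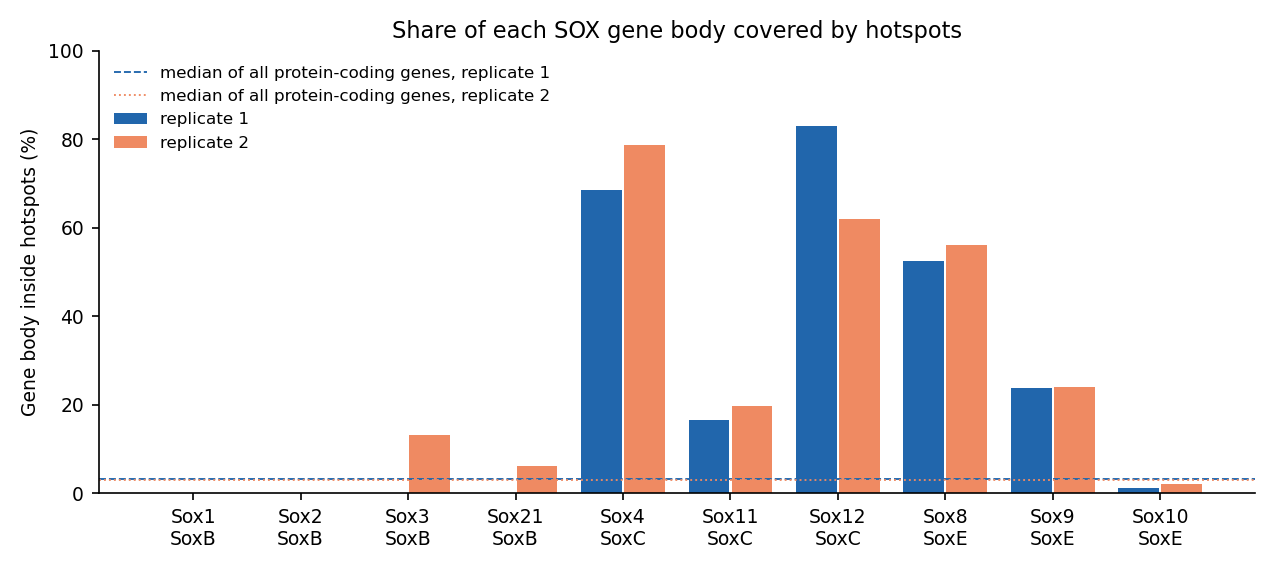
Percentage of each gene body inside hotspots (y axis) in replicate 1 (blue) and replicate 2 (orange), with the median over all protein-coding genes as horizontal lines (3.112% and 2.95%). Sox4, Sox12 and Sox8 lie between 52.53% and 83.05% in both libraries, and Sox1 and Sox2 are at 0%.

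Hotspots covered at least 40% of the gene body in both libraries for 3 of the 10 genes, Sox4, Sox12 and Sox8. Among protein-coding genes under 12 kb, which includes all 10, this was found for 5.68% (500 of 8797). Both limits were set after the values were seen. At Sox8 the hotspot that holds the highest promoter peak covered 839 bp of the 4795 bp gene body in replicate 1 and 890 bp in replicate 2, so other hotspots made up most of its coverage.

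Sox8 (ENSMUSG00000024176.10, chr17:25565892-25570686, minus strand), a SoxE factor of glia and neural crest, had 46 peaks in each library, and 35 of replicate 1 were shared. This was the highest count of the 10 genes, at percentile 95.19 of all protein-coding genes. The promoter peak at -0.12 kb scored 137 and 141 (percentiles 97.58 and 98.9), in a hotspot of 2070 and 2125 bp. The antisense noncoding gene 2810468N07Rik starts 121 bp from a Sox8 start site, so the promoter peak lies in the promoters of both. DNase-seq does not assign it to 1 of them. Hotspots covered 52.53% and 56.12% of the gene body.

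Of the shared Sox8 peaks, 31 were distal. The highest by mean percentile over both libraries lay just downstream of the gene at 4.72 kb with scores of 128 and 109, beside 119 and 117 for one at 30.48 kb, which was higher in replicate 2. Upstream, the Lmf1 promoter held 2 shared peaks, and its strongest scored 131 and 138 at -8.43 kb. Farther upstream, 3 neighbouring peaks inside Lmf1 lay at -22.91, -23.2 and -23.46 kb, with scores of 88 and 70, 100 and 105, and 101 and 108. Many of the distal peaks in the Sox8 window therefore lay inside Lmf1, and the gene they act on was not measured.

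Sox9 (ENSMUSG00000000567.5, chr11:112782224-112787760, plus strand), a SoxE factor of gliogenesis, neural crest and cartilage, had 10 peaks in replicate 1 and 11 in replicate 2, of which 7 were shared. The promoter held 4 of them, at -1.05 kb (scores 57 and 58), -0.61 kb (113 and 102), -0.09 kb (116 and 85) and 0.71 kb (67 and 63). The best peak was a different one in each library, at percentile 91.85 in replicate 1 (-0.09 kb) and 88.49 in replicate 2 (-0.61 kb). Both were below the median of open promoters in their library. A further peak of replicate 2 alone lay in the 5' UTR at 0.21 kb with a score of 92. The noncoding gene BC006965 starts 248 bp away, and its promoter holds the same peaks.

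Outside its promoter, Sox9 had 3 shared peaks. They lay in an intron at 1.31 kb (scores 66 and 33), at -2.23 kb (49 and 33) and at -23.89 kb (26 and 38). Hotspots covered 23.7% and 24.11% of the gene body. Sox9 had the lowest number of shared distal peaks among the 6 SoxC and SoxE genes, and no shared peak downstream of its gene body within the window.

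Sox10 (ENSMUSG00000033006.10, chr15:79154908-79165240, minus strand), a SoxE factor of neural crest, Schwann cells and oligodendrocytes, had no promoter peak in either library at any of its 4 start sites. Its window held 28 peaks in replicate 1 and 31 in replicate 2, and 22 of replicate 1 were shared. The one nearest to a start site lay at -1.63 kb with scores of 47 and 32. A single peak of each library lay in the gene body and the libraries did not share it, and hotspots covered 1.142% and 2.119% of the gene, below the median of all genes. Of the 22 shared peaks, 8 lay at promoters of Micall1, Polr2f and 1700088E04Rik, among them the highest of the window at 23.2 kb (scores 138 and 142).

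The other 14 shared peaks of the Sox10 window were distal, and 9 of them lay upstream between -1.63 and -37.83 kb, all inside the noncoding gene Gm10863. The highest of these by mean percentile stood at -28.05 kb with scores of 102 and 89 (percentiles 87.0 and 83.85), beside one at -28.51 kb with 90 and 80. Sites at -11.85 kb (70 and 94) and -37.83 kb (86 and 80) were also called in both libraries. Sox10 thus had shared sites upstream and a promoter without peaks. The peak at -28.05 kb is shown as the highest distal one by that measure, with a SOX motif in capitals.
Sox10 peak, chr15:79193216-79193365, minus strand, at -28.05 kb: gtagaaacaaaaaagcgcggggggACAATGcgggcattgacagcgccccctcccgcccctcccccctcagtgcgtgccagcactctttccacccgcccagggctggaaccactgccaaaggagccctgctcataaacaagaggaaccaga

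Scores of the 116 shared peaks were alike in the 2 libraries. Across peaks, which are not independent replicates and share the authors' caller, Pearson's r of the score percentiles was 0.9 and Spearman's rho was 0.93. The percentile was lower in replicate 2 for 63 of the 116. Shared peaks had median percentiles of 76.35 and 73.51, and the peaks of 1 library 28.75 and 25.77. The peaks that differed between the libraries were thus mostly low in their lists, the 6 peaks of Sox21 among them. Some were high, such as peaks of 1 library at Sox8 (percentile 86.17 in replicate 1 and 87.86 in replicate 2). These medians were not compared with those over all peaks.

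**Figure D5:**
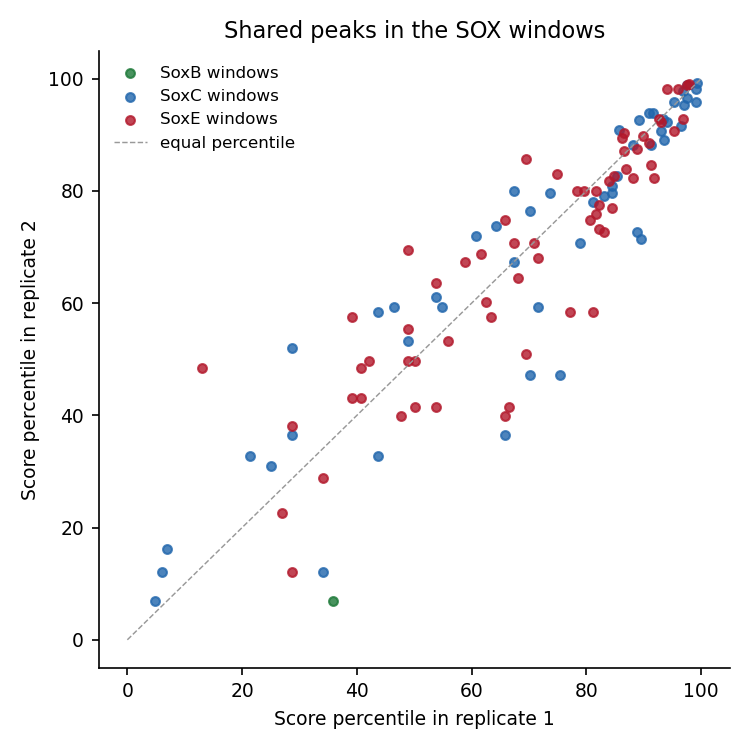
Score percentile of each of the 116 shared peaks in replicate 1 (x axis) and replicate 2 (y axis), by group of the gene whose window holds it, with a dashed line at equal percentiles. Most points lie near the line, and the SoxB point is at 35.81 and 6.971.

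By position, 13 of the 116 shared peaks lay in the promoter of a SOX gene, 14 in promoters of other coding genes and 89 were distal. Inside gene bodies, 2 lay in 5' UTRs, 7 in coding sequence, 10 in 3' UTRs and 1 in an intron, while 53 lay upstream and 43 downstream. SoxC accounted for 8 of the 10 in 3' UTRs. This split by position was not compared with that of all shared peaks. Promoter peaks in both libraries were also present at 6 of the 9 other protein-coding genes with a start site in the windows, near the 59.2% of all protein-coding genes.

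Short motifs were searched on both strands of the 116 shared peaks, as a description of their letters and not of binding. A SOX motif (ACAAAG or ACAATG) was found in 18 (15.5%), against 15.2% of all 114222 shared peaks. Of the 18, 5 were in each of the Sox12, Sox8 and Sox10 windows, 2 at Sox11 and 1 at Sox9. An E-box (CAGCTG) was found in 15.5% against 14.3%, and AP-1 (TGANTCA) in 10.3% against 12%. The NFY motif (CCAAT) was found in 12.9% against 19%. The GATA motif (AGATAA) was found in 2.59% against 7.04%. A CTCF motif was found in 0.862% against 4.42%. The SP/KLF motif (GGGGCGGGG) was found in 0.862% against 3.21%, and the NFI motif in 2.59% against 1.53%. The median GC content was 56.0% in the SOX windows and 52.7% over all shared peaks. SOX, E-box and AP-1 shares lay near the background, and the numbers behind the others are small, from 1 to 15 peaks.

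The rest of the SOX family was described in the same way. Of 10 further members, Sox5, Sox13 and Sox15 were open at the promoter in both libraries, and the other 7 (Sry, Sox6, Sox7, Sox14, Sox17, Sox18 and Sox30) in neither, beside 59.2% open over all protein-coding genes. Best percentiles in each library were 68.07 and 65.21 for Sox13, 53.72 and 53.22 for Sox5, and 42.14 and 39.84 for Sox15. All were lower than at the 4 open SOX genes above. The median of shared peaks per window was 8.5, beside 11 over all genes. Sox14, the other SoxB2 gene beside Sox21, had 1 shared peak in its window and none at its promoter.

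Among 11 partner factors that act with SOX proteins at shared sites, 6 were open at the promoter in both libraries (54.5%, beside 59.2% of all genes). These were Pax3, Pax6, Chd7, Nfia, Egr2 and Pou5f1. The POU factors Pou3f1, Pou3f2 and Pou3f3, known partners of SoxB1 and Sox11 in neural cells, had none, and neither did Tfap2a and Olig2. Pou3f2, like Sox2, had no peak in its window, whereas Pou3f1 had 23 shared peaks.

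Of 17 genes known as SOX targets, 11 were open at the promoter in both libraries (64.7%, beside 59.2% of all genes). The neural progenitor genes Nes, Hes5 and Fabp7, linked with SoxB1, were open, with best percentiles of 83.51 and 89.48, 82.59 and 94.1, and 59.84 and 61.14. Tubb3 and Tead2, linked with SoxC, were open, and the neuronal gene Dcx had no promoter peak. Of genes linked with Sox10, Erbb3 (90.92 and 95.85), Mitf (96.52 and 96.36), Ret (90.92 and 93.87) and Dct (14.57 and 20.43) were open, while the myelin gene Mbp was not. Of the cartilage genes linked with Sox9, Col2a1 had promoter peaks (90.92 and 82.65) and Acan had none. Prox1, a further gene of the list, was closed as well.

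Since the labels name no cell type, markers of cells that could carry these SOX genes were counted by promoter peaks in both libraries. Over all protein-coding genes that share was 59.2%. They were open for 6 of 6 neuronal, 4 of 5 motor neuron (all but Mnx1), 5 of 5 neural progenitor, 2 of 5 oligodendrocyte and Schwann, 1 of 4 astrocyte, 1 of 4 neural crest, 1 of 3 chondrocyte and 2 of 3 fibroblast markers. All 5 progenitor markers thus had promoter peaks in both libraries, beside closed promoters of Sox1, Sox2 and Sox3. Some of these peaks were weak, with best percentiles of 59.84 and 61.14 at Fabp7 and 61.67 and 71.41 at Notch1. Medians over all genes with a promoter peak were 95.22 and 95.34, and of the progenitor markers only Pax6 lay above them. Sox3, closed by peaks, had a promoter hotspot in replicate 2 alone. Mbp and Olig2 were closed beside the closed Sox10 promoter, and Foxd3, Tfap2a and Ednrb of the neural crest list as well. With 3 to 6 genes a list, these counts are descriptions and were not tested against that share. These lists share genes with the target and partner lists, and an open promoter is not a measure of expression.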

How the data were processed

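DNase-seq of 2 MN1 libraries was analysed from lists that the authors deposited on assembly mm10. The peak lists carry a score in the authors' own units, with no normalization stated, and the deposited hotspot lists carry q-values on a −log10 scale, from 1.30 upward, with values above 6 written as 100. Each list came from 1 library. What the aligner, the peak caller and its threshold were is not given in the sources used here. Read depth is unknown, so no interval was computed.

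The 10 genes and all gene lists were chosen with earlier results of these data known. Repeated peaks (43 and 20) and peaks outside the 19 autosomes, X and Y were left out. Overlap of at least 1 bp placed a peak in a window or promoter and made it shared, counted on the replicate 1 list. Percentiles use average ranks for ties. All genes, 93459 start sites and the same rules gave the background. Every SOX gene was named, with its highest promoter and distal shared peaks, and promoters of neighbours holding a peak. Further peaks named were chosen after their values were seen. Some genes of the target and marker lists are counted but not reported here by name. Consensus motifs were matched on both strands. Code was tested on simulated data (Python 3.11.15, pandas 2.3.3, numpy 2.4.6, pysam 0.24.0).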

Additional observations from a re-analysis of the deposited data

How the results depend on the processing

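The count of genes with a promoter peak in both libraries stayed at 4 with a promoter of 500 bp either side, the upper 50% of each list, basic transcripts alone, the outermost start site alone, and either library alone (4 to 4). It was 5 with 2.5 kb either side, which added Sox10. The count by hotspots was 5 with 2.5 kb, and 4 to 5 with 1 library left out. Shared peaks in all windows were 60 with 20 kb flanks and 189 with 100 kb flanks, against 116. For SoxB (1) they were 0 with 20 kb, 7 with 100 kb and 0 in the upper 50% of the lists. For SoxC (51) they were 28 with 20 kb, and for SoxE (64) 32 with 20 kb and 110 with 100 kb. A smaller or wider flank covers fewer or more bases by construction. With 1 library left out, all its partner's peaks count, which gave 156 to 162 in all windows, 3 to 6 for SoxB, 62 to 75 for SoxC and 84 to 88 for SoxE. Under each of the settings tried SoxB had the lowest count and SoxE the highest. The counts are sums over windows that differ in gene density, and no setting left out peaks at neighbouring genes. In windows with the promoter of their own gene only, Sox9 of SoxE had 7 shared peaks, and Sox4 and Sox11 of SoxC had 15 and 9. Of 38 alternatives, 28 were within 1.5 times the reported value. No paired analysis was possible because there was 1 group. With 2 libraries of unknown depth, a site called in 1 library, as at Sox3, cannot be told from one missed in the other.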
